A study of Mus musculus with 55 samples.

Results

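RNA of mouse small cell lung cancer organoids carrying a guide against Meis2 was compared, gene by gene, with RNA of organoids carrying a scrambled guide. All 6 RNA libraries of this comparison were used, out of 55 samples in the series, and they were taken by their labels, 3 for sgMeis2 and 3 for sgScramble. Both groups were made from lung organoids with guides against Trp53, Rb1 and Kmt2c and with Myc and the luciferase Luc2 from a retroviral vector, a combination named PRMK. The sgMeis2 group adds a guide against Meis2 and the sgScramble group a scrambled guide, each on a vector that also carries mCherry and a puromycin resistance gene. Tumours had grown in recipient mice after injection into the left lung, and organoids were taken from those mice. The labels do not say whether the edited cells were 1 clone or a pool, at which age or in which strain the recipients were, or that replicates came from separate animals, so p-values measure the spread between these libraries, which may be technical. In bulk RNA, fewer cells of a type and less RNA per cell cannot be told apart.

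Meis2 encodes a homeodomain transcription factor of the TALE class, which binds DNA together with Pbx and Hox proteins and acts in limb, neural and heart development. Guides direct Cas9 to cut a gene, and the small insertions and deletions left by repair can end its protein while its transcript is still made. Kmt2c, edited in both groups, encodes a histone H3K4 methyltransferase, and the comparison addresses which transcripts change when Meis2 is targeted on that background.

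Expression is given in CPM, that is counts relative to the library total after TMM scaling, which corrects for composition. Library totals were 18524493 to 22012962 counts in sgMeis2 and 21228986 to 24389041 in sgScramble. The sgMeis2 library 3 stood apart. Its Pearson correlation of log2 CPM with the other libraries was 0.974 to 0.977, against 0.995 to 0.998 between all other pairs. Counts of the 13 mitochondrially encoded genes made up 0.438% of it and 3.38% to 3.61% of each of the other 5. Of 10262 genes at 10 CPM or more, 484 (4.72%) lay more than 2-fold from the median of the other libraries, against 18 in sgScramble library 1 and 0 in each of the remaining 4. No chromosome stood out in any library: medians of log2 ratios over the genes of a chromosome ran from -0.03 to 0.06. What set sgMeis2 library 3 apart was not tested, and the results are therefore given with it and without it.

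**Figure D1:**
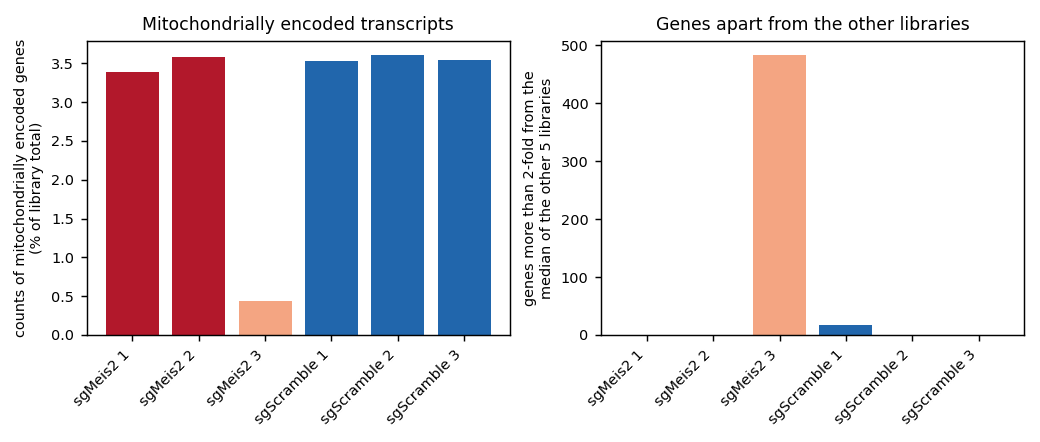
Left, counts of mitochondrially encoded genes as a percentage of the library total; right, number of genes more than 2-fold from the median of the other 5 libraries, with 1 bar for each library (sgMeis2 red, its library 3 lighter, sgScramble blue). sgMeis2 library 3 is at 0.438% and 484 genes, and the other 5 are at 3.38% to 3.61% and at most 18 genes.

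The organoids carried the transcripts of a neuroendocrine tumour in every library. The secretory granule gene Chga was at 343, 347 and 334 CPM in sgMeis2 libraries 1 to 3 and at 304, 319 and 327 CPM in sgScramble. Immune cell markers were near absent: all 26 in the list together held 6.86 to 7.49 CPM in the sgScramble libraries and 7.78 to 8.44 CPM in sgMeis2, and Adgre1, Itgam, Tyrobp, Marco and Cd3e were among 11 with no count in any library. Fibroblast and smooth muscle markers summed to 7.23 to 8.96 CPM in sgMeis2 and 9.25 to 11.2 in sgScramble, and endothelial markers to 10.7 to 12.0 CPM and to 12.2 CPM or more.

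The transcript of the targeted gene changed little. Meis2 (ENSMUSG00000027210; GRCm38.p6 chromosome 2, 115861264 to 116067537) was at 219, 224 and 137 CPM in sgMeis2 libraries 1 to 3 and at 259, 227 and 233 CPM in the sgScramble libraries. The groups did not overlap, but libraries 1 and 2 of sgMeis2 lay just under the lowest sgScramble library and only library 3 was well below. Its log2 fold change was -0.31 (SE 0.19) with all 6 libraries and -0.12 (SE 0.05) without library 3, with adjusted p of 0.754 and 0.484 by the edgeR quasi-likelihood test. With sgScramble library 1 left out as well it was -0.06 (adjusted p = 0.539). Gene counts cannot show whether the Meis2 protein was lost, and the labels name no cut position in the gene.

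The other edited or expressed genes of the model, and the DNA methyltransferase gene Dnmt3a, were not called. Myc was at 734, 690 and 497 CPM in sgMeis2 and 674, 697 and 666 CPM in sgScramble. Kmt2c was at 139, 125 and 119 CPM against 118, 121 and 121 CPM. Trp53, which encodes the p53 tumour suppressor, was at 30.0, 27.9 and 20.8 CPM against 29.2, 27.7 and 26.5 CPM. Rb1 had a log2 fold change of 0.02 with all libraries and 0.06 without library 3. Dnmt3a was at 186, 193 and 238 CPM against 193, 184 and 189 CPM. None of these 5 passed edgeR with or without library 3, and for Trp53, Myc and Dnmt3a library 3 of sgMeis2 was the value farthest from the rest.

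Among the 11 members of the Meis, Pbx and TALE list, which holds the partners and relatives of Meis2, 10 had a log2 fold change below 0 with all libraries (median -0.20) and 8 without library 3 (median -0.12). Over all genes tested the medians were 0.00 and -0.01. No member passed edgeR with or without library 3. Meis1, the closest relative in the list, was at 74.9, 75.9 and 55.6 CPM in sgMeis2 and at 95.8, 75.4 and 76.2 CPM in sgScramble, so the groups overlapped. Pknox1, a TALE factor that also binds Pbx proteins, was at 69.3, 61.5 and 54.0 CPM against 75.3, 71.5 and 71.5 CPM. Of the 36 Hox genes, the other partners, 8 were expressed enough to be tested, 4 of them above 0, and none was called.

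**Figure D2:**
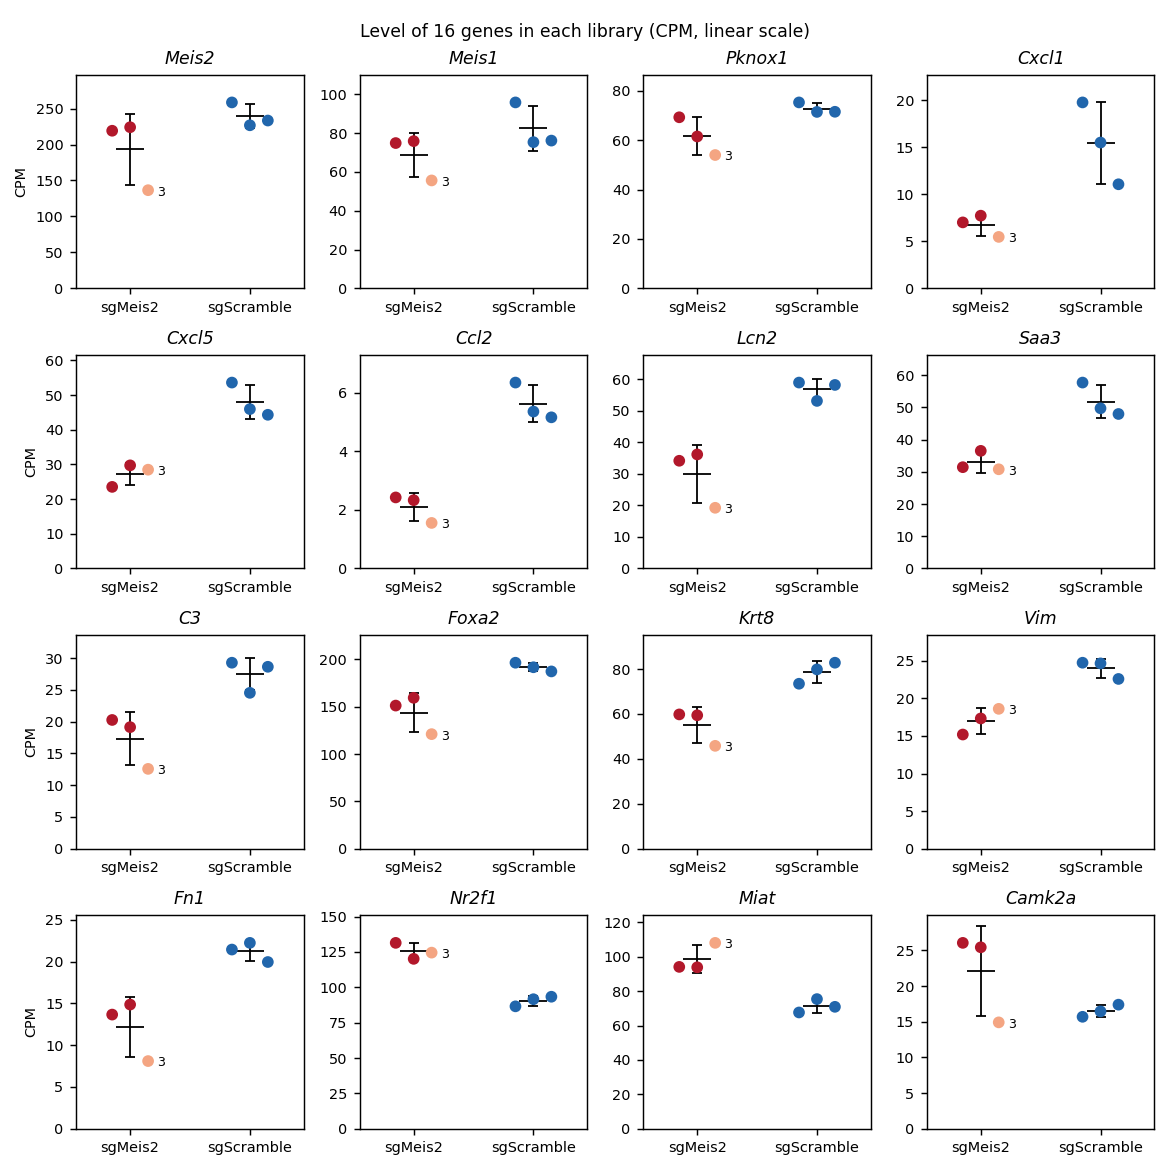
Level in CPM (linear axis from 0) of 16 genes in each library, 1 panel a gene, with sgMeis2 in red, its library 3 lighter and numbered, and sgScramble in blue; horizontal lines are means and bars are SD over 3 libraries. Meis2 is at 219, 224 and 137 CPM against 227 to 259 CPM, while Cxcl5 and Saa3 are lower and Nr2f1 and Miat higher in every sgMeis2 library than in any sgScramble library.

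With all 6 libraries, edgeR called 0 of 16260 genes at an adjusted p under 0.05 (0% higher and 0% lower), with 760 at an unadjusted p under 0.05 and a lowest adjusted p of 0.677. DESeq2, run on the same counts, called 18 of 18073 genes, 2 higher (0.0111%) and 16 lower (0.0885%). The authors' deposited table also holds 18 genes with an adjusted p under 0.05, and these were the 18 that DESeq2 called. Without sgMeis2 library 3, edgeR called 46 of 16565 genes, 12 higher (0.0724%) and 34 lower (0.205%). Of the 46, 16 were among the DESeq2 calls made with all 6 libraries. All 46 had the same sign with library 3 included, but that fit holds the same 5 libraries that gave the calls, so the sign is no separate support. All 34 called lower had sgMeis2 libraries 1 and 2, which the calls used, below all sgScramble libraries, so only library 3 could differ. In 32 of them sgMeis2 library 3 was below all sgScramble libraries too, and the exceptions were Igfbp4 and Pdgfa. For 4 of the 12 called higher, Pou2f2, Camk2a, Leng8 and ENSMUSG00000109554, library 3 lay on the other side, below all sgScramble libraries. Over all genes tested, the groups did not overlap for 8.12% (higher) and 7.92% (lower). These shares require all 3 sgMeis2 libraries on one side. The share for library 3 alone was not computed, so they are no measure for the 32 of 34.

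These calls rest on 2 sgMeis2 libraries. Leaving out either of them as well gave 0 calls, with 776 genes without library 1 and 1189 without library 2 at an unadjusted p under 0.05 by edgeR, and leaving out sgScramble library 2 gave 4 calls up and 13 down, all 17 of them shared with the 46. Leaving out sgScramble library 3 gave 26 higher and 67 lower. sgScramble library 1 also differed from the rest, in stress genes. All 18 genes more than 2-fold from the other libraries were higher in it, and 8 of them were in the list of ATF4 and unfolded protein response genes, which cells switch on when amino acids or protein folding fail. Trib3, a pseudokinase gene of that response, was at 238 CPM in it and at 47.0 to 93.0 CPM in the other 5. Atf3, a stress-induced transcription factor, was at 53.3 CPM against 8.88 to 14.8 CPM. With sgMeis2 library 3 and sgScramble library 1 both left out, edgeR called 160 genes higher (0.976%) and 172 lower (1.05%) of 16392, and all 46 were among them. The libraries of that fit also gave the 46 calls, so this is no separate support.

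**Figure D3:**
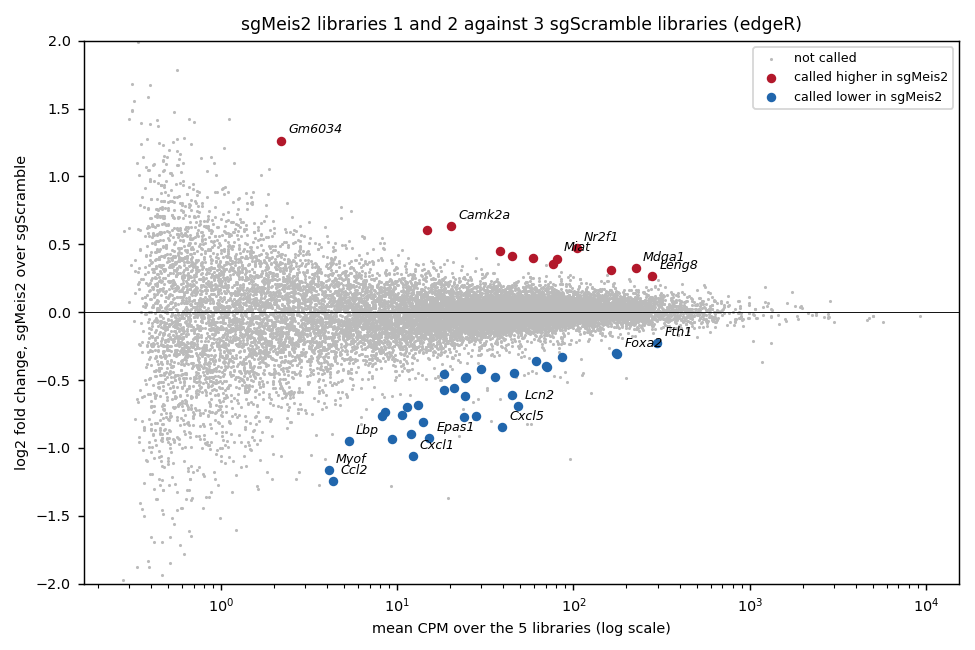
Log2 fold change of sgMeis2 libraries 1 and 2 over the 3 sgScramble libraries (vertical axis, cut at 2 and -2, leaving 3 genes outside) against mean CPM over these 5 libraries (log axis), with 1 point for each gene tested. The 34 genes called lower (blue) lie between -1.24 and -0.23 and the 12 called higher (red) between 0.27 and 1.26.

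The genes called lower were led, by p, by proteins of inflammation and innate defence. The 4 called chemokines, secreted proteins that draw white blood cells, were lower in every sgMeis2 library than in any sgScramble library. So were 32 of all 34 genes called lower, and only sgMeis2 library 3 could differ, since the calls used the other libraries. Cxcl5, a neutrophil attractant, was at 23.5, 29.7 and 28.5 CPM in sgMeis2 and 53.6, 45.95 and 44.3 CPM in sgScramble. Its log2 fold change was -0.85 (SE 0.10; adjusted p = 0.00276 by edgeR) without library 3 and -0.82 with it. Cxcl1, which acts through the same receptor, was at 7.01, 7.73 and 5.47 CPM against 19.8, 15.5 and 11.1 CPM. sgScramble library 1 was the highest for both, and Cxcl1 fell by 1.06 on the log2 scale (SE 0.19; adjusted p = 0.0364 by edgeR) without sgMeis2 library 3 and by 0.84 without sgScramble library 1 as well. Ccl2, the monocyte attractant, was at 2.43, 2.33 and 1.56 CPM against 6.35, 5.36 and 5.16 CPM, the steepest of the 34 falls (log2 fold change -1.24, SE 0.19; adjusted p = 0.00959 by edgeR). Cxcl15, a chemokine of lung epithelium, was at 8.44, 10.8 and 6.65 CPM against 18.8, 15.5 and 16.4 CPM. These were the 4 called among the 18 tested members of a list of chemokines and cytokines that was drawn up after values were seen. Over all genes tested, 0.205% were called lower, but the count describes this list only. Of the 18, 12 were below 0, and the median log2 fold change was -0.10 without library 3 and -0.41 with it. Without sgScramble library 1 as well it was -0.30 over 17 tested. The list summed to 59.2 to 74.0 CPM in sgMeis2 and 100.0 to 125 CPM in sgScramble.

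Acute phase and innate defence proteins were also among the genes called lower. Of 22 tested members of a list also drawn up after values were seen, 8 were called lower and none higher, 19 were below 0 and the median log2 fold change was -0.59. Over all genes, 0.205% were called lower and the median was -0.01. Since the list was prompted by such calls, its count and median describe it only. Lcn2 (lipocalin 2), which binds bacterial iron carriers, was at 34.2, 36.2 and 19.3 CPM in sgMeis2 and at 59.0, 53.2 and 58.2 CPM in sgScramble. It had the lowest p of all genes, falling by 0.70 on the log2 scale without library 3 (SE 0.07; edgeR adjusted p = 7.99e-04) and by 0.93 (adjusted p = 0.754) with it. Slpi, a secreted inhibitor of neutrophil proteases, was at 17.0, 16.9 and 22.1 CPM against 29.6, 28.6 and 28.1 CPM. Saa3, a serum amyloid A protein, was at 31.4, 36.5 and 30.8 CPM against 57.7, 49.7 and 47.9 CPM, with no overlap. Its log2 fold change was -0.61 (SE 0.09; adjusted p = 0.00846 by edgeR) without library 3 and -0.65 with it. Cp, the copper-carrying ferroxidase ceruloplasmin, was at 18.4, 18.5 and 14.8 CPM against 29.6, 27.2 and 27.8 CPM. C3, the central complement protein, was at 20.3, 19.1 and 12.6 CPM against 29.3, 24.5 and 28.6 CPM. The same direction held for Lbp, which carries bacterial lipopolysaccharide to its receptor (log2 fold change -0.95), for Steap4, a metalloreductase (-0.68), and for Fth1, the ferritin heavy chain (-0.23), the smallest fall of the 34. All 8 also had sgMeis2 library 3 below the sgScramble libraries, as did 32 of all 34 genes called lower. All 8 were called without sgScramble library 1 too, as were all 46 called genes. The libraries of that fit also gave the calls, so it is no separate support. The immune cell markers were not lower with these genes, being 7.78 to 8.44 CPM in sgMeis2 and 6.86 to 7.49 CPM in sgScramble when summed, with the defining macrophage and neutrophil markers Adgre1, Itgam and S100a9 at 0. Endothelial markers (6 tested, 4 below 0, median log2 fold change -0.38) and fibroblast markers (5 tested, 5 below 0, median -0.49) had the same sign as these genes, and their part in the result was not tested.

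Regulators of these genes had no call. In a list of 31 tested NF-kB, Stat3 and C/EBP regulators, drawn up after values were seen, no member passed edgeR and 27 were below 0, with a median log2 fold change of -0.19 without library 3. The median was -0.11 without sgScramble library 1 as well. Nfkbia, the NF-kB inhibitor that NF-kB itself induces, was at 18.4, 18.9 and 18.6 CPM against 21.6, 22.6 and 21.2 CPM, with no overlap. Stat3, which carries interleukin signals to acute phase genes, was at 142, 147 and 140 CPM against 138, 140 and 131 CPM, with every sgMeis2 library above every sgScramble library. Cebpb, another factor of the acute phase, was at 15.5, 18.7 and 39.0 CPM against 30.0, 19.6 and 18.9 CPM, so that the highest value of each group came from sgMeis2 library 3 and sgScramble library 1. The 3 genes were chosen after their values were seen.

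For the called genes, among them the chemokines and acute phase proteins, the 250 bases before the start sites in RefSeq (GRCm38.p6) were searched for a common NF-kB motif, GGGANNNNCC, and for the core of the MEIS site, TGACAG, on both strands, counting overlapping matches. The following 4 promoters are shown because they held a match and belong to genes that fell, with matches in capitals. The Cxcl1 promoter (chr5:90890995-90891244, plus strand) held 3 NF-kB matches, of which 2 overlap, those of C3 (chr17:57228137-57228386, minus strand) and Steap4 (chr5:7960222-7960471, plus strand) held 3 and 2, and that of Saa3 (chr7:46715677-46715926, minus strand) held a MEIS core and no NF-kB match.
Cxcl1: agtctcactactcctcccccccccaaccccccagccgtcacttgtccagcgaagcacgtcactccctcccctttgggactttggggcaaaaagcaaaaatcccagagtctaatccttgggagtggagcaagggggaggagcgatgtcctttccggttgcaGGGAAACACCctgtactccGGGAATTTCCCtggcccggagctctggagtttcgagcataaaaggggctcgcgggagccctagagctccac
C3: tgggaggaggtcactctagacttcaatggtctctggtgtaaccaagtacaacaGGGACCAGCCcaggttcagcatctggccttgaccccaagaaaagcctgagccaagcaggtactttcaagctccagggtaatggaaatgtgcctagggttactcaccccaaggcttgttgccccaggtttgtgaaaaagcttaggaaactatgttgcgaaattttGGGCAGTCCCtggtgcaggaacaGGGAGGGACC
Steap4: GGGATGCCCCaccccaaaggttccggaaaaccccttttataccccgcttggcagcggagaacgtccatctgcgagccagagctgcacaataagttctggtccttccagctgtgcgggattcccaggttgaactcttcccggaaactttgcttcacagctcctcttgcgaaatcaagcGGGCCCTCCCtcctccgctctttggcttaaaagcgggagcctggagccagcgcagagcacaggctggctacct
Saa3: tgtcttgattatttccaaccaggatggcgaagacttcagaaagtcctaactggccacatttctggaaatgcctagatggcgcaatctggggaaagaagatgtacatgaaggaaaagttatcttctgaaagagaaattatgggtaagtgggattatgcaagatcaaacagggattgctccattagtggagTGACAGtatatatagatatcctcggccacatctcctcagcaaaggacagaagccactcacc
Of the 12 called chemokine and acute phase genes, 9 have a promoter in the table, and Ccl2, Cxcl5 and Lbp were not searched. An NF-kB match was in 5 of these 9 and a MEIS core in 2, Fth1 holding both, while Lcn2, Slpi and Cxcl15 held neither. Among all calls, an NF-kB match was in the promoters of 9 of the 28 genes called lower that have a promoter in the table (32.1%), in 3 of 8 called higher (37.5%) and in 26.3% of the 10832 tested genes with one. The MEIS core was in 3 of 28 (10.7%), in 1 of 8 (12.5%) and in 16.3%. A Pbx-Hox site, TGATTNAT, was in 1 of 28 and 0 of 8, against 1.58% of all. These shares describe letters in a window and not binding.

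Some genes of the mesenchymal transition list were lower as well. Of 22 tested members of the mesenchymal transition list, 3 were called lower and none higher, 19 were below 0 and the median log2 fold change was -0.40 without library 3 and -0.55 with it. Without library 3, 0.205% of all genes tested were called lower. Vim, the intermediate filament vimentin, was at 15.2, 17.3 and 18.6 CPM in sgMeis2 and at 24.8, 24.7 and 22.6 CPM in sgScramble. Fn1 (fibronectin) was at 13.7, 14.9 and 8.10 CPM against 21.4, 22.2 and 19.95 CPM, and Sparc, a collagen-binding matrix protein, at 7.33, 7.78 and 8.37 CPM against 13.7, 11.5 and 13.2 CPM. In all 3 genes the groups did not overlap, as in 32 of all 34 genes called lower. The log2 fold changes without library 3 were -0.56, -0.57 and -0.76 (adjusted p = 0.0127, 0.0127 and 0.0123 by edgeR). In the list of extracellular matrix genes and integrins, 1 of 33 tested was called, Fn1 again, with 26 below 0 and a median of -0.10, and its summed level overlapped between the groups. Outside both lists, and chosen after their values were seen, the collagen-processing enhancer Pcolce (log2 fold change -0.90) and the small proteoglycan Bgn (-0.74) were also called lower. Fibroblast and smooth muscle markers had the same sign: all 5 tested were below 0, with a median of -0.49, and 14 of the 18 were under 1 CPM in every library. Pdgfrb, a pericyte and fibroblast receptor, was at 1.64, 2.42 and 1.88 CPM against 3.82, 3.51 and 2.77 CPM. Their part in the fall of these genes was not tested.

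The epithelial and the mesenchymal list had medians of the same sign. Of 26 epithelial genes tested, 22 were below 0, and the median log2 fold change was -0.20 without library 3 and -0.19 with it. Krt8, the keratin of simple epithelia, was the 1 called member, at 59.8, 59.4 and 45.8 CPM against 73.5, 79.9 and 82.8 CPM (log2 fold change -0.41, SE 0.06; adjusted p = 0.00959 by edgeR). With sgScramble library 1 also left out, 7 were called lower, in a fit that called 1.05% of all genes lower. The share over all genes was 0.205% when sgScramble library 1 was kept. Among the 7 was Epcam, the epithelial adhesion molecule, at 62.8, 62.0 and 60.9 CPM against 68.6, 74.2 and 73.6 CPM.

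Of the neuroendocrine transcription factors, Foxa2 was called lower. This forkhead factor of the lung and endoderm was at 151, 159 and 121 CPM in sgMeis2 and 197, 192 and 187 CPM in sgScramble, and fell by 0.31 on the log2 scale (SE 0.05; edgeR adjusted p = 0.00959). Over the 20 tested members the median was -0.04, and 7 were above 0. Of all genes tested, 0.205% were called lower without library 3. In the list of secretory and synaptic genes, Scg2 (secretogranin II) was called lower, at 8.65, 7.87 and 9.71 CPM against 14.1, 12.4 and 13.6 CPM. The 26 tested members had a median of 0.00 with 12 above 0 without library 3, and of -0.09 with 6 above 0 when it was included.

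Further called genes belong to signalling and guidance. Epas1, which encodes the hypoxia factor HIF-2 alpha, was at 8.65, 11.0 and 7.51 CPM in sgMeis2 and at 20.9, 18.3 and 17.2 CPM in sgScramble (log2 fold change -0.93, SE 0.12; adjusted p = 0.00555 by edgeR). It was 1 of 37 tested in the hypoxia and glycolysis list, whose median was 0.00. Itpkb, an inositol phosphate kinase, was at 5.06, 6.95 and 6.06 CPM against 12.8, 11.5 and 10.4 CPM, and Myof (myoferlin), a membrane repair protein, at 2.16, 2.52 and 3.06 CPM against 5.20, 5.07 and 5.49 CPM. Both were lower in every sgMeis2 library than in any sgScramble library, as were 32 of all 34 genes called lower. In the axon guidance list, the ligand Sema3e (log2 fold change -0.30) and the receptor Plxna4 (-0.42) were called, 2 of 48 tested members with a median of 0.02. The calls in this list and the hypoxia list stand beside 0.205% of all genes tested called lower without library 3. Sema3e was at 154, 153 and 168 CPM against 199, 188 and 180 CPM.

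Of 38 tested genes of growth factor signalling, 2 were called lower without library 3, Igfbp4 and Pdgfa, against 0.205% of all genes tested. Both changed with library 3. Igfbp4, an insulin-like growth factor binding protein, was at 18.1 and 21.5 CPM in sgMeis2 libraries 1 and 2, at 39.0 CPM in library 3 and at 38.2, 31.2 and 31.5 CPM in sgScramble. Its log2 fold change was -0.77 (adjusted p = 0.00555 by edgeR) without library 3 and -0.36 (adjusted p = 0.754) with it. Pdgfa, a platelet-derived growth factor, was at 14.98, 15.3 and 28.1 CPM against 20.1, 21.1 and 20.8 CPM, and its fall of 0.45 on the log2 scale shrank to 0.09 with library 3. DESeq2 without library 3 gave Pdgfa an adjusted p of 0.0805. In both, library 3 lay above every other sgMeis2 and sgScramble library. Btc (betacellulin), a ligand of the EGF receptor, was at 2.27, 1.69 and 1.88 CPM against 3.82, 4.22 and 4.17 CPM, and Svep1, a matrix protein, at 1.42, 1.51 and 1.50 CPM against 3.96, 3.70 and 2.73 CPM. Both were called with all libraries by DESeq2 and by limma voom with library weights, while edgeR without library 3 gave them adjusted p of 0.056 and 0.0615.

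The 12 genes called higher had smaller changes, with a median log2 fold change of 0.41, and 1 of them reached 2-fold. Nr2f1 (COUP-TFI), an orphan nuclear receptor of neural development, was at 131, 120 and 125 CPM in sgMeis2 and at 86.5, 91.6 and 93.3 CPM in sgScramble. No sgMeis2 library overlapped, and its log2 fold change was 0.47 without library 3 (SE 0.05; adjusted p = 0.00273 by edgeR) and 0.47 with it. Miat, a long noncoding RNA of neural tissue, was at 94.1, 93.9 and 108 CPM against 67.6, 75.4 and 70.9 CPM. Mdga1, a neural adhesion protein, was at 267, 247 and 290 CPM against 195, 213 and 207 CPM, also without overlap. The predicted gene Gm6034 was at 3.53, 3.20 and 3.92 CPM against 1.52, 1.61 and 1.07 CPM, the gene that passed 2-fold (log2 fold change 1.26, SE 0.24; adjusted p = 0.044 by edgeR and 0.0873 by DESeq2 without library 3, and 0.0096 by DESeq2 with it). Sfta3-ps, Ccdc187 and A230057D06Rik were also higher without overlap, with log2 fold changes of 0.40, 0.35 and 0.41.

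The remaining higher calls did not hold in library 3. Camk2a, a calcium-dependent kinase of neurons, was at 26.1 and 25.4 CPM in sgMeis2 libraries 1 and 2, at 14.9 CPM in library 3 and at 15.7, 16.5 and 17.4 CPM in sgScramble. Pou2f2, a POU homeodomain factor, was at 191, 179 and 110 CPM against 150, 149 and 148 CPM. In both, libraries 1 and 2 lay above and library 3 below every sgScramble library. Their log2 fold changes were 0.64 and 0.31 without library 3 and 0.42 and 0.11 with it, and Leng8 went from 0.27 to 0.02.

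**Figure D4:**
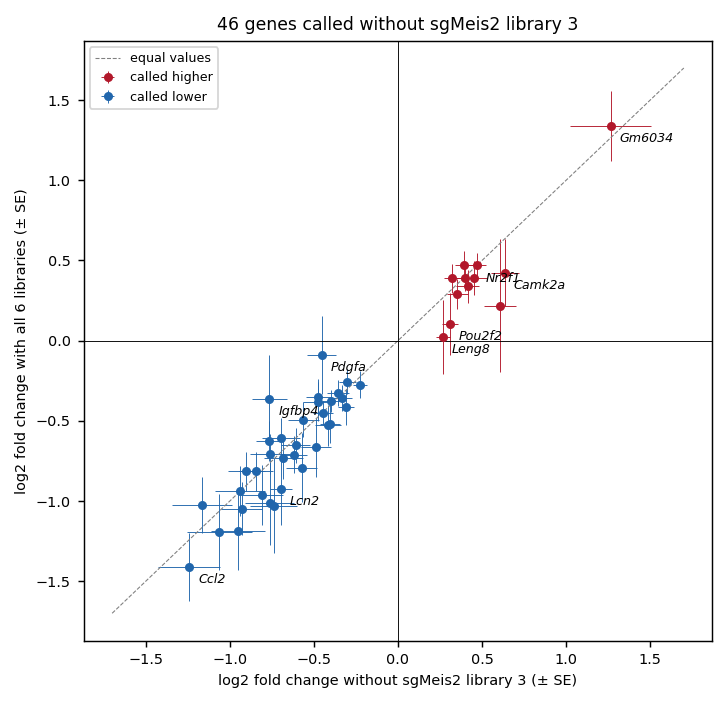
Log2 fold change with all 6 libraries (vertical axis) against that without sgMeis2 library 3 (horizontal axis) for the 46 genes called without it, with SE bars from edgeR and a dashed line of equal values. Most genes lie near the line, and Igfbp4 (-0.77 and -0.36), Pdgfa (-0.45 and -0.09) and Leng8 (0.27 and 0.02) are nearer to 0 when library 3 is included.

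Other lists had no called member. Of 38 tested clustered protocadherins, cell surface proteins of neuronal identity whose genes share exons, 32 were above 0 without library 3 and the median was 0.09, but 22 were above 0 and the median was 0.03 without sgScramble library 1 as well. The cell cycle list (38 tested, median 0.03), the H3K4 methyltransferases and demethylases (23 tested, 0.03), the Polycomb genes (32 tested, 0.02) and the DNA methylation machinery (17 tested, 0.02) had no call. In the ATF4 list, 26 of 36 were below 0 with a median of -0.06, and the median was -0.02 without sgScramble library 1. Among lists with no called member, markers of other cell types aside, the medians that moved most with library 3 were those of the mitochondrially encoded genes, -0.04 without it and -0.56 with it, and of the replication-dependent histones, -0.14 and -0.33.

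**Figure D5:**
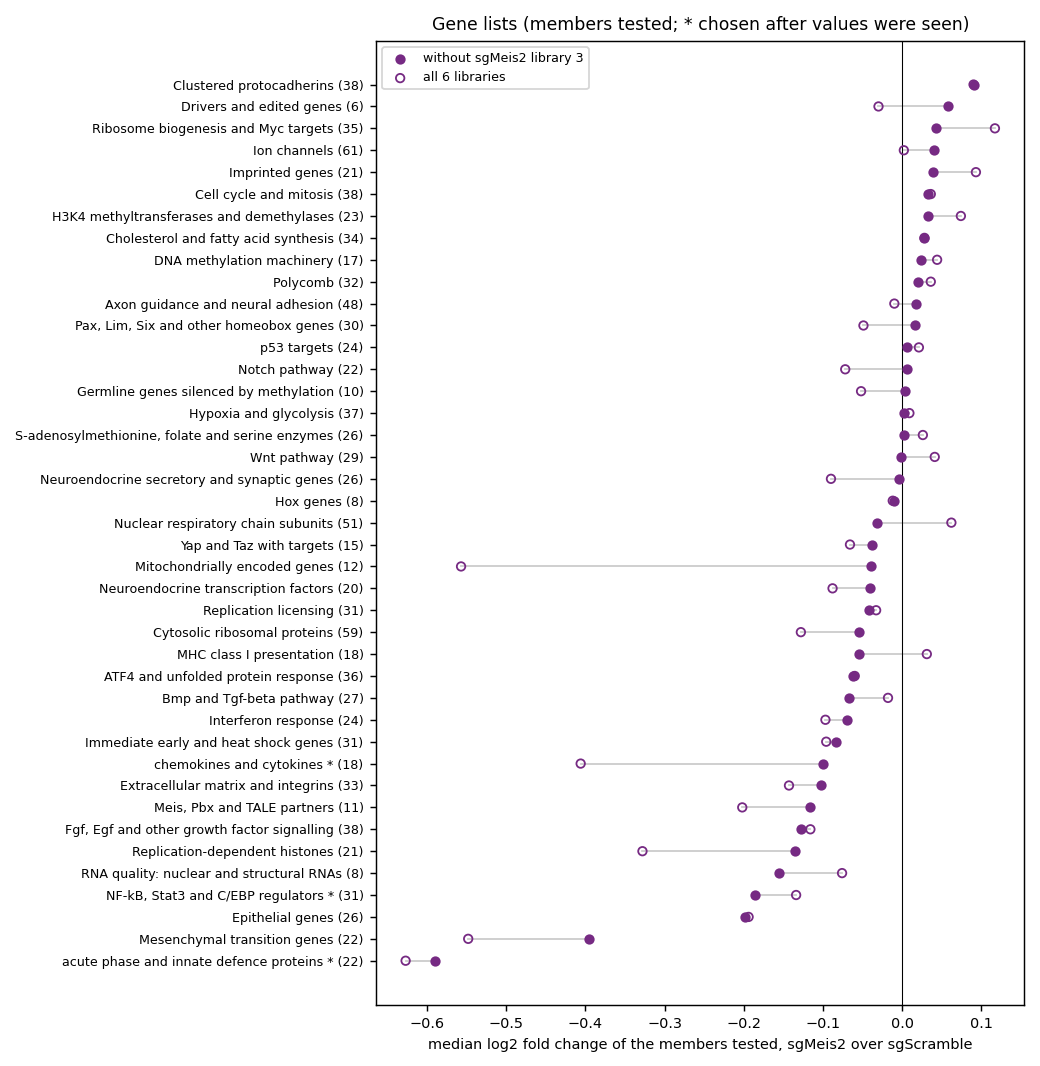
Median log2 fold change of the tested members of each gene list with at least 4 tested, markers of other cell types left out and lists chosen after values were seen starred, without sgMeis2 library 3 (filled) and with all 6 libraries (open); numbers in brackets are members tested. The acute phase list is at -0.59 and -0.63, the mesenchymal list at -0.40 and -0.55, and the mitochondrially encoded genes shift from -0.04 to -0.56 with library 3.

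A separate table compares lung tumours labelled PRMK with tumours labelled PRM. Its libraries are not shared with the guide comparison, it was scaled on its own, so levels are not set across the tables, and the PRMK samples in it list no guide against Kmt2c. A library kit is named for its PRM samples only, so genotype and library preparation cannot be told apart there. Meis2 was at 139, 215 and 272 CPM in PRMK and at 0.889, 1.46 and 17.3 CPM in PRM. It was not called there (log2 fold change 5.02, SE 1.25; adjusted p = 0.195 by edgeR). Of the 34 genes lower in sgMeis2, 25 were tested there, 15 above 0 and 10 below in PRMK, and of the 12 higher genes 10 were tested, 4 above and 6 below. Over all 13914 genes 48.6% were above 0. Sema3e, lower in sgMeis2, was at 274, 327 and 264 CPM in PRMK and 57.0, 3.36 and 29.5 CPM in PRM. Nr2f1, higher in sgMeis2, was at 22.2, 33.5 and 0.673 CPM against 0.889, 363 and 21.5 CPM. Saa3 was at 116, 142 and 51.0 CPM in PRMK and at 86.9, 0.448 and 241 CPM in PRM. For Sema3e the groups did not overlap, while for Nr2f1 and Saa3 they overlapped. Sema3e, Nr2f1 and Saa3 were not called there either, with adjusted p of 0.21, 0.511 and 0.983 by edgeR.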

How the data were processed

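RNA libraries of 3 sgMeis2 and 3 sgScramble samples were analysed. The authors aligned reads with STAR 2.6.0a to GRCm38, per the submitters' processing notes, and deposited raw counts for 51912 genes. The counting tool, strand setting and annotation are not given in the sources used here, so overlapping and antisense genes are uncertain. The table also holds log2 fold changes and p-values deposited by the authors. Symbols were missing for 24781 genes, and 24552 received one by gene ID.

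Counts were tested in R 4.3.3 with edgeR 4.0.16 (TMM scaling, low-count filter, quasi-likelihood test, Benjamini-Hochberg adjusted p under 0.05), over all 6 libraries and without sgMeis2 library 3. Alternatives were DESeq2 1.42.0, RLE size factors, no filter, limma 3.58.1 voom with library weights, a replicate block and leaving out single libraries. Leaving out further libraries beside sgMeis2 library 3 was added after seeing the data. Scripts were tested on simulated data. Replicate pairs differed beyond sampling noise, with chi-square per degree of freedom of at least 2.04. Lists and promoters were handled in Python 3.11.15 with numpy 2.4.6 and pandas 2.3.3, and figures with matplotlib 3.10.9.

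The libraries, gene lists and tests were chosen with earlier results of these data known, and 3 lists were added after values were seen. Genes were named by rule: the drivers, the Meis and Pbx list, the 10 largest changes per direction among called genes at 1 CPM or more without overlap, and at most 4 calls per list. Because edgeR called none with all libraries, DESeq2 calls were used there. Other called genes, and those said to be chosen after their values were seen, were added. The table's columns labelled as TPM do not sum to the same total in each library, as TPM would, and were not used.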

Additional observations from a re-analysis of the deposited data

How the results depend on the processing

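With all 6 libraries, edgeR called 0 genes higher and 0 lower. DESeq2 called 2 and 16, and limma voom with library weights 21 and 46, of which 43 were among the 46 called without sgMeis2 library 3, which it gave a weight of 0.076. RLE size factors and no filter gave 0, with 757 and 1285 genes at an unadjusted p under 0.05 by edgeR. Leaving out single libraries gave 0 to 12 higher and 0 to 34 lower, with calls only when sgMeis2 library 3 was left out. Without that library the counts were 12 and 34. DESeq2 then called 25 higher and 36 lower, 44 of the 46 among them and Gm6034 and Pdgfa not, no filter gave 96 and 213, and voom 91 and 95. Leaving out 1 more library gave 0 to 160 higher and 0 to 172 lower. Where a group held 1 library, it was assumed to vary like the other group.

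The replicate numbers did not pair the libraries: deviations from the group means of same-numbered libraries correlated at 0.01, 0.00 and 0.03. With the replicate block, 0 genes were called with all libraries (636 at an unadjusted p under 0.05 by edgeR), and 76 higher and 182 lower without sgMeis2 library 3. The Meis2 log2 fold change under the block was -0.34.

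Meis2 was below 0 and not called under the 11 alternatives to the comparison of 6 libraries, from -0.43 to -0.09, and was at -0.06 without sgMeis2 library 3 and sgScramble library 1. The sign changed for 8 of the 51 named genes, of which Pou2f2 and Pdgfa were among the 46 called without sgMeis2 library 3. Of those 46, 43 kept their sign without sgMeis2 library 1, and 43 without library 2. With voom, Trp53 was at 0.063, Myc at 0.048 and Pknox2 at 0.113. Leaving out single libraries gave ranges of -0.185 to 0.054 for Trp53, -0.006 to 0.062 for Rb1, -0.189 to 0.064 for Myc, -0.083 to 0.004 for Pbx2, -0.459 to 0.155 for Pknox2, -0.107 to 0.192 for Tgif1, -0.036 to 0.309 for Pou2f2 and -0.454 to 0.074 for Pdgfa. Of the list medians under these alternatives, 83 moved by more than the spread between libraries and 412 did not. The cause of these shifts was not tested. With 2 or 3 libraries a side, small changes of weakly expressed genes were not detectable.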

Other observations

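In sgScramble library 1, stress genes outside the comparison's calls were high together. Beside Trib3 and Atf3, Chac1, a glutathione-degrading enzyme of the ATF4 response, was at 111 CPM against 26.3 to 50.7 CPM in the other 5 libraries. Ddit3 (CHOP) was at 69.2 CPM against 19.1 to 30.5 CPM, and Slc7a11, the cystine transporter, at 49.3 CPM against 11.9 to 19.2 CPM. Their log2 fold changes of -0.82, -0.80 and -0.91 in sgMeis2 without its library 3 became -0.21, -0.20 and -0.18 with sgScramble library 1 also left out, and none was called either way.

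In sgMeis2 library 3, 147 genes were more than 2-fold higher and 337 lower than the median of the others, 11 of 12 mitochondrially encoded genes and 13 of 56 cytosolic ribosomal protein genes among the lower.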
